A study of Mus musculus with 6 samples.

Results

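The MYC and MAX network is a group of transcription factors with a basic helix-loop-helix leucine zipper that pair with MAX or with its relative MLX. The 10 genes described here, Myc, Mycn, Max, Mxd1, Mxi1, Mxd3, Mxd4, Mnt, Mlx and Mlxip, were chosen by name among the 56748 genes of the deposited count table, and 9 of the 10 had enough counts to be tested. RNA was sequenced from mouse CD4 T cells to ask how antisense oligonucleotides (ASOs) against Pgam, the gene name given for the glycolytic enzyme phosphoglycerate mutase, alter cells that are polarized toward regulatory T cells (Tregs). The control group held 3 libraries with a scrambled ASO, of 17588755, 18032805 and 16231127 counts, and the other 3 were labelled Pgam ASO, of 16589933, 15860476 and 16803881 counts. All cells were WT, from C57BL/6 mice aged 6 to 10 weeks. Naïve CD4 cells, labelled as splenocytes and described in the methods as coming from spleen and lymph nodes, were stimulated with antibodies to CD3 and CD28 in Treg polarizing medium with IL-2, TGF-β and blocking antibodies to IFNγ and IL-4. The ASO was present at 10 μM from the start, both groups received one, and the cells were collected on day 3 without sorting. The labels number the replicates and the study calls them biological replicates of these RNA-seq data, but whether each came from a separate animal or culture is not given in the sources used here, so the p-values below measure the spread between these libraries.

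MYC proteins bind DNA together with MAX at E-box elements and activate genes of growth, ribosome production and metabolism, and Myc is induced when T cells are activated. MXD proteins and MNT compete for MAX at the same elements and recruit the SIN3-HDAC corepressor, so that they oppose MYC. In a parallel branch MLX pairs with MondoA, the product of Mlxip, which responds to glucose phosphates and activates Txnip and Arrdc4, and MLX can also pair with MNT, MXD1 and MXD4.

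The targeted genes came first as a check of the labels. Pgam1, which encodes the widely expressed phosphoglycerate mutase, stood at 599.6, 478 and 707 CPM (counts relative to the total of each library, scaled with TMM factors) in scrambled ASO replicates 1, 2 and 3, and at 658, 661 and 707 in Pgam ASO replicates 1, 2 and 3. These values overlapped between groups. The log2 fold change, Pgam ASO over scrambled ASO here and below, was 0.18 ± 0.13 (SE, n = 3 per group), with a 95% interval from -0.10 to 0.46. Its adjusted p was 0.331, from the edgeR quasi-likelihood test with Benjamini-Hochberg adjustment over all tested genes, as for each adjusted p below, and genes under 0.05 are called. Pgam2, the muscle form, was at 5.23, 6.75 and 2.85 CPM under scrambled ASO and 2.98, 2.69 and 2.60 under Pgam ASO. Its groups overlapped too, and the log2 fold change of -0.84 ± 0.31 (95% interval from -1.54 to -0.15) missed the threshold (adjusted p = 0.0854). It passed the threshold when scrambled ASO replicate 3 was left out (log2 fold change -1.11, adjusted p = 0.0144) and when no filter on low counts was used (adjusted p = 0.0292), within a range of 0.0144 to 0.286 over all alternatives. Neither gene was called at the RNA level, which does not measure the protein, and directions below are therefore given for libraries as they were labelled. Of the stretches of 31 bases in Pgam1 transcripts, 37.1% also occur in the pseudogene Pgam1-ps2, which had 749 counts over all libraries against 63765 for Pgam1.

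The label of the cells was compared with marker genes. All 7 T cell markers were present, led by Cd4 at 732 to 804 CPM under scrambled ASO and 650.2 to 697 under Pgam ASO, and their summed level was 2699, 2863 and 2537 CPM in the scrambled ASO libraries and 2167, 2241 and 2378 in the Pgam ASO libraries. Of these 7 genes 2 fell, where 9.15% of all tested genes did, namely Cd28 and Trac, which encode a costimulatory receptor and the constant part of the T cell receptor alpha chain. Among 5 Treg markers, Foxp3 and Ikzf2 fell and Il2ra rose, where 9.15% of all tested genes fell and 8.03% rose. The summed level of these 5 markers, most of it Il2ra, was 3029, 2886 and 3331 CPM under scrambled ASO and 3722, 3750.1 and 3378 under Pgam ASO. Foxp3, the lineage factor of Tregs, was at 282, 371 and 222 CPM under scrambled ASO and at 89.7, 109 and 131 under Pgam ASO, with a log2 fold change of -1.41 ± 0.20 (adjusted p = 0.00567). Without scrambled ASO replicate 1, Pgam ASO replicate 1 or Pgam ASO replicate 2, 1 T cell marker and 1 Treg marker were called lower and no Treg marker higher. Without scrambled ASO replicate 2, 1 of each list was lower and 1 Treg marker higher, and the lower T cell markers became 5 without scrambled ASO replicate 3 and 4 without Pgam ASO replicate 3 or with no filter on low counts. The single marker genes are named after their values were seen. In bulk RNA, fewer cells of a type and less RNA per cell cannot be told apart.

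Markers of other cells were low. The summed level of 2 CD8 markers was 10.8 to 15.7 CPM over the 6 libraries, and of these Cd8a rose, from 2.59 ± 0.44 to 5.65 ± 1.8 CPM (SD, n = 3), a call lost without scrambled ASO replicate 1 or Pgam ASO replicate 1, where 0 of the 2 were called. Cd8b1, the more abundant of the pair, was at 9.27 ± 1.0 and 8.08 ± 1.2 CPM, with overlapping groups, and was not called (log2 fold change -0.20, adjusted p = 0.454). The sums were 6.63 to 11.6 CPM for 5 B cell markers, with Cd79a highest on average over the 6 libraries, 2.73 to 6.46 for 7 myeloid markers, with Lyz2 highest on average, and 3.85 to 7.50 for 4 dendritic cell markers, with Zbtb46 highest in each library. All 5 B cell, 4 of the 7 myeloid and 1 of the 4 dendritic cell markers had enough counts to be tested, and none was called. However, 1 B cell marker was called in each direction by DESeq2, with no filter on low counts, and without scrambled ASO replicate 3 or Pgam ASO replicate 3, and 1 was called higher with at least 10 counts in every library. Of 3 NK cell markers, Klrb1c was at 0 in every library and Ncr1 was near 0, while Eomes, which T cells also express, fell from 46.5 to 26.4 CPM on average, a call lost (0 of 3 markers) without scrambled ASO replicate 1, Pgam ASO replicate 1 or Pgam ASO replicate 2. Mast cell and basophil markers summed to 1.07, 1.89 and 1.36 CPM under scrambled ASO and 4.10, 3.98 and 2.96 under Pgam ASO, led by Cpa3, the 1 gene of 4 with enough counts to be tested, which was not called under the filter and test used for all genes here. Yet 1 of the 4 was called higher by DESeq2, by limma-voom, with at least 10 counts in every library, and without scrambled ASO replicate 2, scrambled ASO replicate 3 or Pgam ASO replicate 3, and 2 were with no filter on low counts. Last, 5 erythroid markers summed to 0.929 to 1.78 CPM, and the 1 of them that could be tested, Hba-a1, was not called. Whether any of these shifts had a part in the results below was not tested.

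Myc was the most abundant member per kb of merged exons and did not pass the test, Mxd1, Mxd4 and Max were lower in the libraries labelled Pgam ASO, and Mlx was higher. Thus 3 of the 9 tested members were called lower, where 9.15% of all 14936 tested genes were, and 1 was called higher, where 8.03% were. In either direction 4 of 9 members passed, against 17.2% of all tested genes, and the 6 libraries separated by label for the same number, 4 of 9, against 39.5%. Without scrambled ASO replicate 1, Pgam ASO replicate 1 or Pgam ASO replicate 2, 1 member was called lower and 0 higher. Without scrambled ASO replicate 2 these were 2 and 0, and without scrambled ASO replicate 3 they were 3 and 2. Mycn, which is not among the 9, passed the low-count filter without any 1 scrambled ASO library or without Pgam ASO replicate 2. It was 1 of the 2 rises without scrambled ASO replicate 3. The median log2 fold change of the 9 members was -0.17, beside -0.0061 over all tested genes. The share of members that separated by label was thus near that of the whole table, and with 9 genes these counts describe the list without setting it apart.

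**Figure D1:**
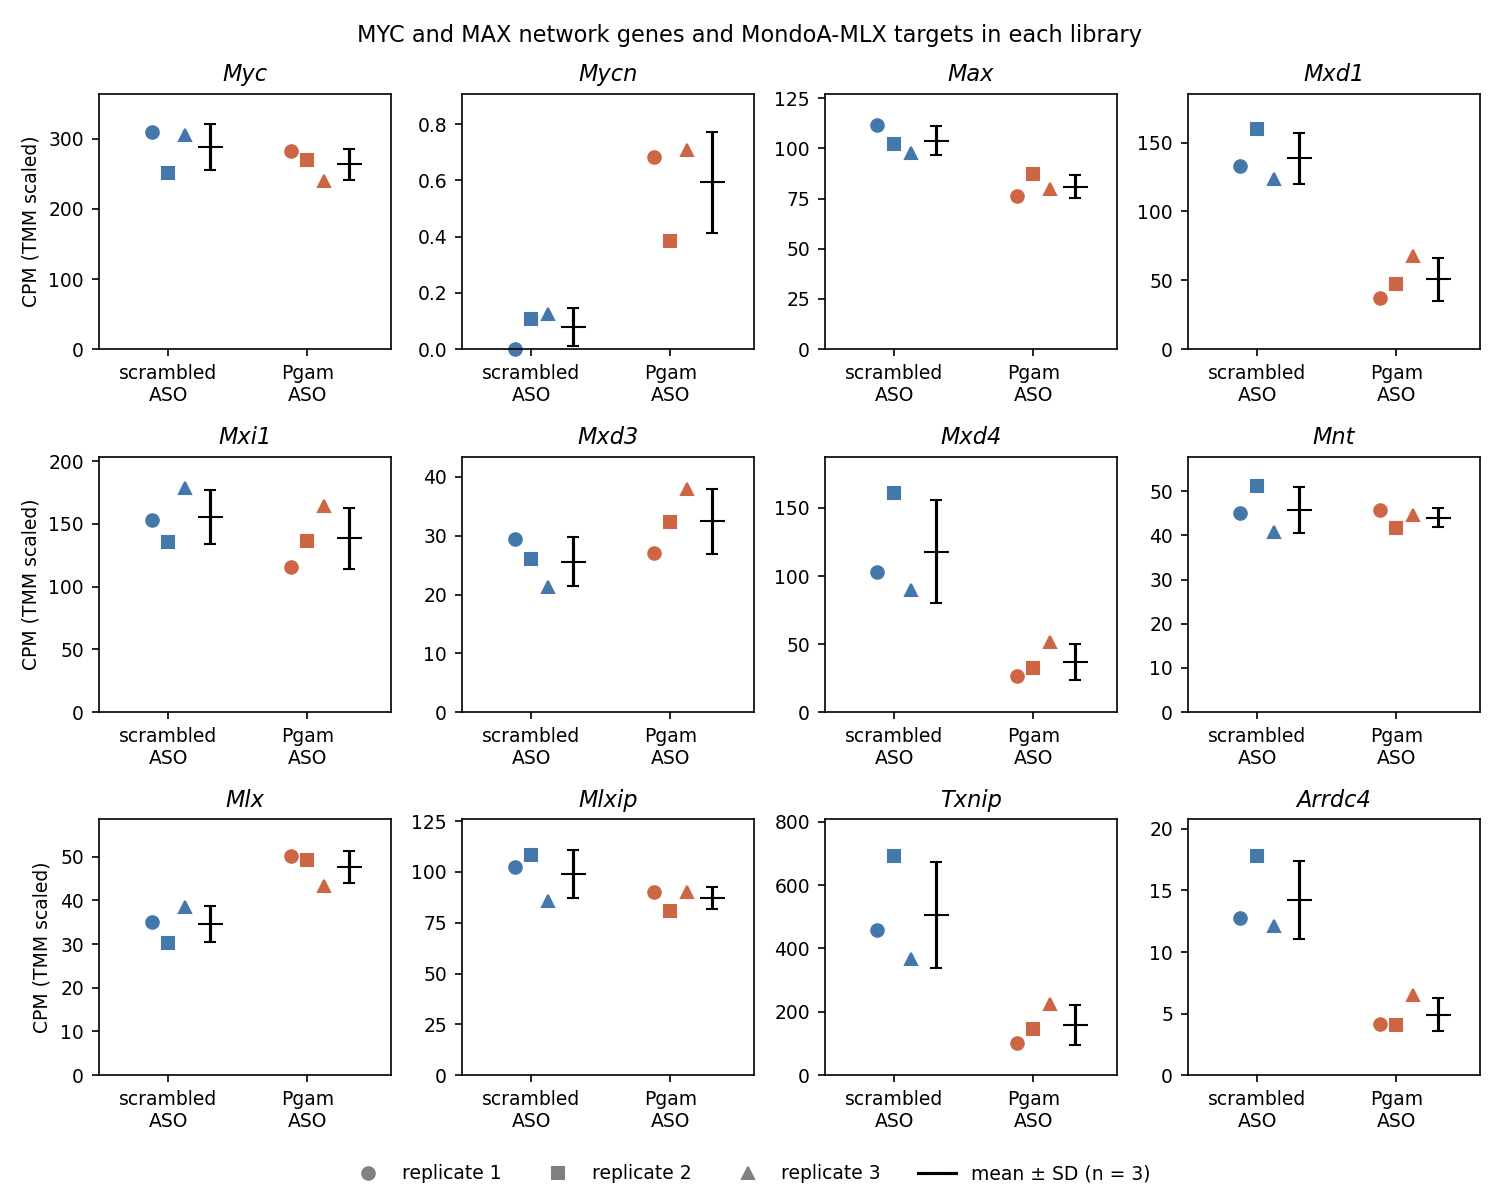
CPM (TMM scaled, linear axis from 0) of the 10 network members and of Txnip and Arrdc4 in each library; symbols mark the replicate number, and the black line with its bar is the mean ± SD of 3 libraries. All Pgam ASO libraries lie below all scrambled ASO libraries for Max, Mxd1, Mxd4, Txnip and Arrdc4, and above them for Mlx and Mycn.

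Myc itself, at chr15:61985391-61990374 (GRCm38), stood at 309.8, 251 and 306 CPM in scrambled ASO replicates 1 to 3 and at 283, 269.7 and 239 CPM in Pgam ASO replicates 1 to 3. Scrambled ASO replicate 2 lay below Pgam ASO replicates 1 and 2, so the groups overlapped. Its log2 fold change of -0.13 ± 0.10 had a 95% interval from -0.36 to 0.10 (adjusted p = 0.406), which corresponds to a level between 0.778 and 1.07 times that of the scrambled ASO libraries. The tested genes whose log2 CPM followed Myc most closely over the 6 libraries were Nhs, Tmem125 and Nedd4, with Pearson r of 0.990, 0.990 and 0.982, given as a description over 6 libraries of 2 labels.

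Mycn, the paralog best known from embryonic tissue and neuroblastoma, was close to absent. Its counts were 0, 2 and 2 in the scrambled ASO libraries and 11, 6 and 12 in the Pgam ASO libraries, or 4 against 29 in all. Every Pgam ASO library held more than any scrambled ASO library, and the ratio of the summed counts per scaled library was 7.82, with an exact 95% interval from 2.75 to 30.6 that covers counting error alone. The low-count filter left Mycn out of the test. Without that filter it was called higher (adjusted p = 0.0195), as were 6.43% of the 28512 genes then tested, and the call was lost without scrambled ASO replicate 1 (adjusted p = 0.137), Pgam ASO replicate 1 (0.104) or Pgam ASO replicate 3 (0.0801), within a range of 0.0192 to 0.137. Even in the libraries labelled Pgam ASO its level per length was 0.180 ± 0.055 CPM per kb of merged exons, against 97.1 ± 8.1 for Myc.

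Max encodes the shared partner of the MYC, MXD and MNT proteins and lies at chr12:76937269-76962201. It was at 112, 102 and 98.0 CPM under scrambled ASO and at 76.1, 87.5 and 79.6 CPM under Pgam ASO. The lowest scrambled ASO library was above the highest Pgam ASO library, and Max fell by 0.36 ± 0.09 on the log2 scale, with a 95% interval from -0.56 to -0.16 (adjusted p = 0.0262). This call was lost without scrambled ASO replicate 1 (log2 fold change -0.31, adjusted p = 0.115), Pgam ASO replicate 1 (-0.31, 0.0965) or Pgam ASO replicate 2 (-0.42, 0.0763), within a range of 0.00890 to 0.115 over all alternatives.

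Among the 4 MXD genes, 2 fell, where 9.15% of all tested genes did, and the other 2 did not pass the test. Mxd1, a repressor that is typical of cells leaving the cell cycle, was at 133, 159 and 124 CPM in the scrambled ASO libraries and at 37.3, 47.1 and 67.6 CPM in the Pgam ASO libraries. Its groups were far apart, with Pgam ASO replicate 3 the highest of its label and still below scrambled ASO replicate 3. The level was 2.73 times higher under scrambled ASO, with a log2 fold change of -1.45 ± 0.21 and a 95% interval from -1.93 to -0.98 (adjusted p = 0.00569). Mxd1, at chr6:86647042-86669161, was called under each of the 14 settings without a fold threshold, the 6 that leave out 1 library included, and no other member was.

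Mxd4, a further repressor of this family, at chr5:34173883-34187720, was at 103, 161 and 89.6 CPM under scrambled ASO and at 26.8, 32.4 and 51.9 CPM under Pgam ASO. Scrambled ASO replicate 2 stood well above the other scrambled ASO libraries, and the groups did not overlap. The log2 fold change was -1.67 ± 0.32, with a 95% interval from -2.43 to -0.91 (adjusted p = 0.0213), or a level 3.18 times higher under scrambled ASO. It missed the threshold without scrambled ASO replicate 1 (log2 fold change -1.76, adjusted p = 0.0552), scrambled ASO replicate 2 (-1.38, 0.0562), Pgam ASO replicate 1 (-1.48, 0.0571) or Pgam ASO replicate 2 (-1.58, 0.0870), and with no filter on low counts (-1.66, 0.0856), within a range of 0.000546 to 0.0870.

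Mxi1, also known as Mxd2, was at 153, 136 and 179 CPM under scrambled ASO and at 116, 137 and 164 CPM under Pgam ASO, with overlapping groups. Its log2 fold change was -0.17, with a 95% interval from -0.47 to 0.14 (adjusted p = 0.421). Mxd3, the MXD gene that is linked to dividing cells, was at 29.5, 26.0 and 21.3 CPM under scrambled ASO and at 27.0, 32.3 and 38.0 CPM under Pgam ASO. These groups overlapped as well (log2 fold change 0.34 ± 0.15, adjusted p = 0.145). Exons of Mxd3 overlap 105 bases of Prelid1 on the opposite strand, a gene with 49206 counts in all against 2930 for Mxd3, and 3.08% of the 31-base stretches of Mxd3 occur in Prelid1. No source used here states whether counting kept the strand, without which reads from these shared stretches cannot be told apart. Prelid1 itself had a log2 fold change of 0.12 ± 0.09 (adjusted p = 0.395).

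Mnt encodes the repressor that is present in most cells, dividing or not. It was at 45.1, 51.1 and 40.7 CPM under scrambled ASO and at 45.7, 41.6 and 44.6 CPM under Pgam ASO. The Pgam ASO libraries lay within the range of the scrambled ASO libraries, and the log2 fold change, -0.05, was uncalled, with a 95% interval from -0.29 to 0.18 (adjusted p = 0.748).

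In the MLX branch, Mlx rose and Mlxip did not pass the test. Mlx, at chr11:101087277-101092207, was at 35.0, 30.3 and 38.5 CPM under scrambled ASO and at 50.1, 49.1 and 43.3 CPM under Pgam ASO. Each Pgam ASO library was above each scrambled ASO library, and the log2 fold change was 0.46 ± 0.11, with a 95% interval from 0.21 to 0.71 (adjusted p = 0.0252). The call was lost without scrambled ASO replicate 1 (log2 fold change 0.46, adjusted p = 0.0864), scrambled ASO replicate 2 (0.37, 0.0611), Pgam ASO replicate 1 (0.42, 0.0838) or Pgam ASO replicate 2 (0.43, 0.115), within a range of 0.00136 to 0.115. Of the 31-base stretches of Mlx, 17.1% are shared with Psmc3ip, whose exons overlap it on the opposite strand. Psmc3ip had 1381 counts in all against 4108 for Mlx, and a log2 fold change of 0.34 ± 0.15 (adjusted p = 0.147). Mlxip, the gene of MondoA, was at 103, 109 and 85.5 CPM under scrambled ASO and at 90.3, 80.9 and 89.9 CPM under Pgam ASO. Its groups overlapped (log2 fold change -0.18, 95% interval from -0.41 to 0.04, adjusted p = 0.232).

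**Figure D2:**
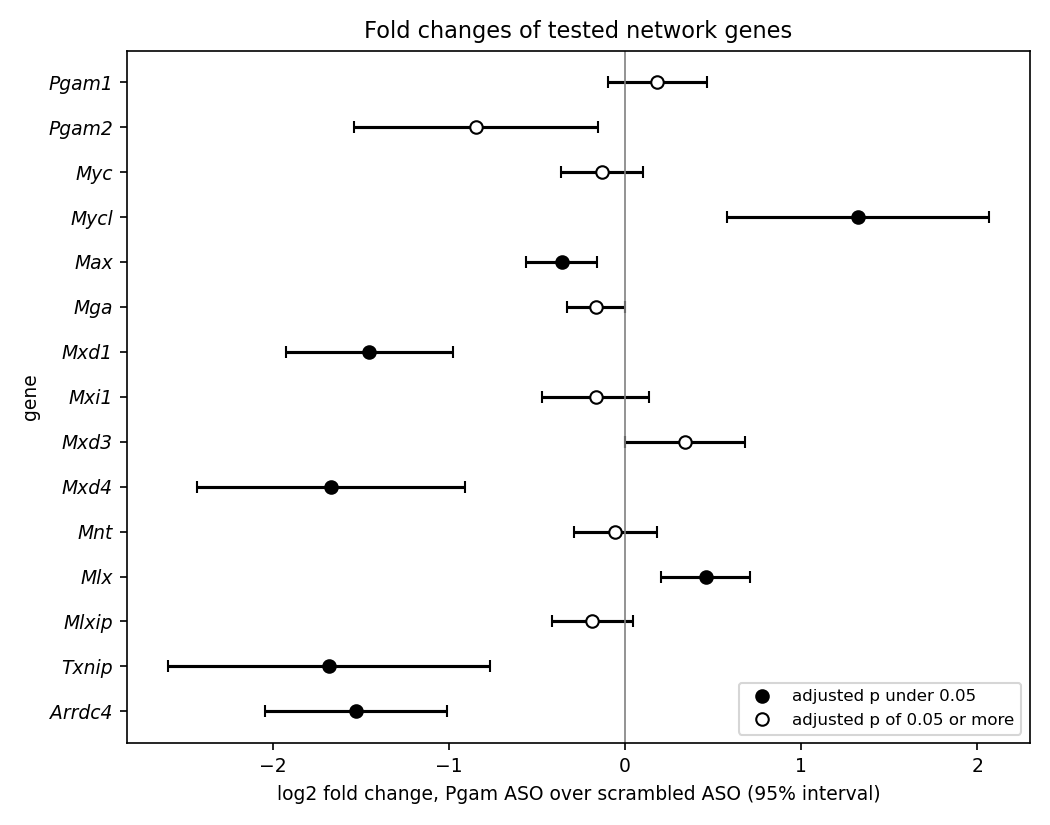
Log2 fold change of Pgam ASO over scrambled ASO (horizontal axis) with its 95% interval for the targeted genes, the 9 tested members, Mycl and Mga, and Txnip and Arrdc4; filled points have an adjusted p under 0.05. Mxd1, Mxd4, Txnip and Arrdc4 lie between -1.45 and -1.68, and the intervals of Pgam1, Myc, Mxi1, Mxd3, Mnt, Mlxip and Mga include 0.

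Of 3 other genes of the network, 1 rose, where 8.03% of all tested genes did, 1 did not pass the test and 1 was not tested. Mycl, the smallest MYC paralog, was scarce, at 0.619, 0.810 and 0.805 CPM under scrambled ASO and 1.61, 1.99 and 2.01 CPM under Pgam ASO, without overlap, and it rose by 1.32 ± 0.33 on the log2 scale (adjusted p = 0.0273). That call was lost without scrambled ASO replicate 1 (adjusted p = 0.103), scrambled ASO replicate 2 (0.0619), Pgam ASO replicate 1 (0.0634) or Pgam ASO replicate 2 (0.113), within a range of 0.0176 to 0.113. Mga, a large partner of MAX that represses germline genes, was at 168, 166 and 172 CPM under scrambled ASO and 153, 149 and 149.7 CPM under Pgam ASO. Although the groups of Mga did not overlap, its log2 fold change of -0.16 ± 0.07 did not pass (adjusted p = 0.147). Mlxipl, which encodes the MondoA relative ChREBP, had 3 to 8 counts per library and was not tested.

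Compared per length, Myc stood first in both groups, at 106 ± 12 CPM per kb under scrambled ASO (SD, n = 3) and 97.1 ± 8.1 under Pgam ASO. Under scrambled ASO the order then ran Max (28.9 ± 2.0), Mxi1 (22.8 ± 3.2), Mxd1 (19.6 ± 2.6), Mlx (17.3 ± 2.1), Mxd4 (13.9 ± 4.5), Mlxip (11.9 ± 1.4), Mxd3 (10.8 ± 1.7), Mnt (9.86 ± 1.1) and Mycn. From Mxi1 to Mnt, the libraries of each gene overlapped those of the next. Under Pgam ASO the order was Mlx (23.8 ± 1.8), Max (22.5 ± 1.6), Mxi1 (20.3 ± 3.6), Mxd3 (13.7 ± 2.3), Mlxip (10.5 ± 0.64), Mnt (9.50 ± 0.46), Mxd1 (7.17 ± 2.2), Mxd4 (4.36 ± 1.6) and Mycn. There Mlx, Max and Mxi1 overlapped in turn, as did Mlxip, Mnt, Mxd1 and Mxd4, and Mxd1 and Mxd4 had moved from the middle of the list to its lower end. These orders are given for merged exon length alone, and levels of different genes depend on the length used.

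The summed level of the 4 MXD genes and Mnt was lower under Pgam ASO. It was 75.5, 83.4 and 72.0 CPM per kb in the scrambled ASO libraries and 46.7, 53.1 and 65.4 in the Pgam ASO libraries. These sums did not overlap, and Mxd1 and Mxd4 together made up 40.9%, 49.7% and 38.9% of the sum under scrambled ASO and 18.1%, 19.7% and 24.0% under Pgam ASO. Divided by Myc in the same library, the sum gave ratios of 0.662, 0.902 and 0.640 under scrambled ASO and 0.449, 0.535 and 0.742 under Pgam ASO. The ratios overlapped, since Pgam ASO replicate 3 lay above scrambled ASO replicates 1 and 3, and the means of 0.735 ± 0.15 and 0.575 ± 0.15 (SD, n = 3) differed by about the spread between libraries. With the mean transcript length in place of merged exons the mean ratios were 1.40 and 1.03, so whether the sum lies above or below Myc depends on the length used. The ratio is a description of RNA levels with no test, and it does not measure protein or binding.

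**Figure D3:**
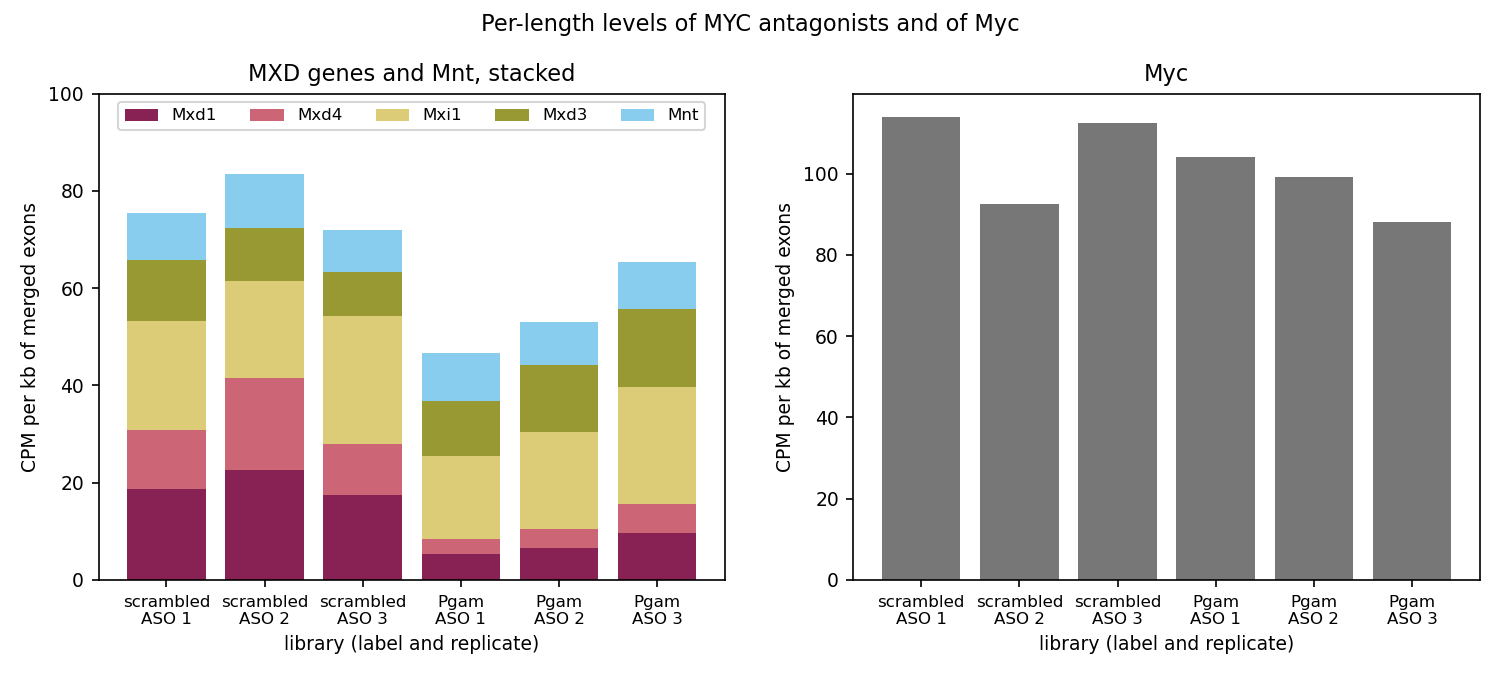
Level in CPM per kb of merged exons (vertical axes, from 0) of Mxd1, Mxd4, Mxi1, Mxd3 and Mnt, stacked in the left panel, and of Myc in the right panel, for each of the 6 libraries. The stacked sum is 72.0 to 83.4 in the scrambled ASO libraries and 46.7 to 65.4 in the Pgam ASO libraries, while the Myc bars of both labels overlap.

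Both targets of MondoA and MLX fell, where 9.15% of all tested genes did. Txnip encodes a protein that restrains glucose uptake and was at 459, 690.5 and 366 CPM under scrambled ASO and at 101, 146 and 226 CPM under Pgam ASO. Scrambled ASO replicate 2 was again the highest library and Pgam ASO replicate 1 the lowest, without overlap, and Txnip fell by 1.68 ± 0.37 on the log2 scale (adjusted p = 0.0347). That call was lost without scrambled ASO replicate 1 (adjusted p = 0.0864), scrambled ASO replicate 2 (0.126), Pgam ASO replicate 1 (0.0605) or Pgam ASO replicate 2 (0.113), and with no filter on low counts (0.112), within a range of 0.00158 to 0.126. Arrdc4, a related arrestin-like gene, was at 12.8, 17.8 and 12.1 CPM under scrambled ASO and at 4.16, 4.11 and 6.51 CPM under Pgam ASO. Its groups did not overlap, and it fell by 1.53 ± 0.23 (adjusted p = 0.00397), a call held under each setting tried. Txnip shares 17.2% of its 31-base stretches with Gm15441, which overlaps it on the opposite strand and had 57 counts in all.

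Mxd1, Mxd4 and Txnip ranked the libraries alike. From high to low the order was scrambled ASO replicates 2, 1 and 3 and then Pgam ASO replicates 3, 2 and 1. Mlx had exactly the reverse order. Of all tested genes, 5.21% had the first order and 5.75% its reverse, so the gradient within each label was shared by 778 and 859 genes and was not particular to the network.

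The promoters of members were read for the E-box CACGTG, the element bound by MAX and MLX dimers, which reads the same on both strands. RefSeq windows (GRCm38.p6) from 250 bases before to 50 after the start site were given for 9 of the 10 members, Myc having no entry. The element was present in Max, Mxd4, Mnt and Mlx and was not found in the windows of Mycn, Mxd1, Mxi1, Mxd3 or Mlxip, and it occurs in 7.15% of all 32851 windows. Thus it was found in genes that fell, that rose and that did not pass the test, while Mxd1 fell and lacks these letters in its window. The stretches around the element, in capitals, are shown 5′ to 3′ on the strand of each gene for the called members that hold it and for Mnt. Positions count from the RefSeq start site, and the elements lie upstream of it, apart from the stretch of Max, where the element begins 3 bases before the start site and runs across it. In Mxd4 it begins 219 bases before the start site, in Mnt 123 and in Mlx 40. The stretches are chr12:76962226-76962291 (minus strand) for Max, chr5:34187904-34187960 (minus strand) for Mxd4, chr11:74830761-74830826 (plus strand) for Mnt and chr11:101087210-101087275 (plus strand) for Mlx.
Max: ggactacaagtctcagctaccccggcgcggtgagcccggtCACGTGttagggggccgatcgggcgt
Mxd4: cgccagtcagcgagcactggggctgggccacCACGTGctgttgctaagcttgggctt
Mnt: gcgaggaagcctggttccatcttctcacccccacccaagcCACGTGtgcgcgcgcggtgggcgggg
Mlx: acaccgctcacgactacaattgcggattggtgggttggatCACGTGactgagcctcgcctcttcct

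The promoters of both MondoA and MLX targets are shown because these genes fell together. Arrdc4 holds CACGTG 193 bases before its start site, at chr7:68749406-68749471 (minus strand). Txnip has no CACGTG in its window but holds a pair of CACGNG elements 5 bases apart, the arrangement of a carbohydrate response element, beginning 85 bases before the start site, at chr3:96557832-96557908 (plus strand). A pair so spaced, searched on both strands, occurs in 16 of the 32851 windows, or 0.0487%. A match is a description of the letters and shows no binding in these cells.
Txnip: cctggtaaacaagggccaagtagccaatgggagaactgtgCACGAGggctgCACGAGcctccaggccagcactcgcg
Arrdc4: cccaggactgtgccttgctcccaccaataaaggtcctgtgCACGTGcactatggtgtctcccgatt

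Cofactors of the network were followed as lists, which like those below were chosen with earlier results of these data known. Of 12 MYC coactivators, 5 rose, where 8.03% of all tested genes did, and none fell, with a median log2 fold change of 0.10. They included Ruvbl1 and Ruvbl2, paired ATPases of chromatin remodelling complexes, at 66.2 ± 8.4 and 102 ± 15 CPM under scrambled ASO and 96.8 ± 12 and 148 ± 14 CPM under Pgam ASO (SD, n = 3), with adjusted p of 0.0173 and 0.0168. Of the 31-base stretches of Ruvbl1, 57.0% are shared with the pseudogene Gm5837, which had 82 counts in all against 8146. Exons of Ruvbl2 overlap 310 bases of Gys1 on the opposite strand, with 8.71% of stretches shared and 6002 counts in Gys1 against 12507 in Ruvbl2. Ruvbl1 was lost without scrambled ASO replicate 1 (adjusted p = 0.0573), Pgam ASO replicate 1 (0.0617) or Pgam ASO replicate 2 (0.0879), and Ruvbl2 without the same libraries (0.0695, 0.0594 and 0.0791). The 5 calls became 0 without scrambled ASO replicate 1, Pgam ASO replicate 1 or Pgam ASO replicate 2, and 3 without scrambled ASO replicate 2.

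The SIN3-HDAC corepressor that MXD and MNT proteins recruit was tested through 15 genes, of which 1 rose and 1 fell, with a median of 0.00058. These counts are near the shares of all tested genes called higher (8.03%) and lower (9.15%), so they set nothing apart for the complex, and the genes named are its 2 called ones. Rbbp7, a histone-binding subunit, rose by 0.38 ± 0.10 on the log2 scale (adjusted p = 0.0290), and Arid4b, a DNA-binding subunit, fell by 0.46 ± 0.10 (adjusted p = 0.0162). Without scrambled ASO replicate 1, Pgam ASO replicate 1 or Pgam ASO replicate 2 neither was called (adjusted p for Rbbp7 of 0.104, 0.0910 and 0.119, and for Arid4b of 0.0646, 0.0593 and 0.0865), and Rbbp7 was also lost without scrambled ASO replicate 2 (0.0556). Without scrambled ASO replicate 3 the list held 3 rises and 2 falls, and without Pgam ASO replicate 3 it held 1 and 2. There were 2 of each by DESeq2, and 3 rises and 2 falls with no filter on low counts. Rbbp7 shares 11.6% of its 31-base stretches with Gm6382, which had 340 counts against 37294, and its exons overlap 174 bases of Txlng (3321 counts) on the opposite strand. Exons of Arid4b overlap 257 bases of Ggps1 on the opposite strand, with 1.32% of stretches shared and 4005 counts against 8140.

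Genes that act on the stability of MYC protein were called both ways, 5 of 19 up and 4 down, with a median of -0.01, where 8.03% of all tested genes were called higher and 9.15% lower. Pim2, a kinase that stabilizes MYC, was at 135, 129 and 139 CPM under scrambled ASO and 68.6, 66.0 and 64.5 CPM under Pgam ASO. These were tight and separate groups, with a log2 fold change of -1.01 ± 0.08 (adjusted p = 0.000251). Fbxo32, a ubiquitin ligase subunit, fell by 1.46 ± 0.24 (adjusted p = 0.00632), and both Pim2 and Fbxo32 were called under each setting tried. Plk1, a mitotic kinase, rose by 0.48 ± 0.11 (adjusted p = 0.0191). Its call was lost without scrambled ASO replicate 1 (0.0629), Pgam ASO replicate 1 (0.0572) or Pgam ASO replicate 2 (0.0854). Plk1 shares 14.8% of its 31-base stretches with Plk-ps1, which had 135 counts against 14496. No rise in this list was called without scrambled ASO replicate 1, Pgam ASO replicate 1 or Pgam ASO replicate 2, where 3 falls were, and without scrambled ASO replicate 2 there was 1 rise.

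Of 25 genes that MYC is known to activate, 13 rose, 12 were not called and none fell, where 8.03% of all tested genes rose. This list too was chosen with earlier results of these data known. A log2 fold change above 0 was found for 24 of the 25 and for 7378 of all 14936 tested genes, and the median of the list was 0.49. Slc7a5, the light chain of the large neutral amino acid transporter, was at 155, 114 and 155 CPM under scrambled ASO and 380.3, 331 and 273 CPM under Pgam ASO. The groups were well apart, with a level 2.32 times higher under Pgam ASO and a log2 fold change of 1.22 ± 0.15 (adjusted p = 0.00165). Slc3a2, its heavy chain, was at 101, 86.5 and 111 CPM under scrambled ASO and 184, 172 and 158 CPM under Pgam ASO, without overlap, and rose by 0.78 ± 0.11 (adjusted p = 0.00235). Both were called under each setting tried, whereas the 13 calls of the list became 3 without scrambled ASO replicate 1, 6 without scrambled ASO replicate 2, 3 without Pgam ASO replicate 1 and 2 without Pgam ASO replicate 2.

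Of 5 genes that MYC is known to repress, 4 were tested and 1 fell, where 9.15% of all tested genes did, with a median of -0.57. This was Cdkn1b, an inhibitor of cyclin-dependent kinases, at 156, 230.4 and 155 CPM under scrambled ASO and 59.1, 84.9 and 117 CPM under Pgam ASO. Its groups did not overlap, and the log2 fold change was -1.05 ± 0.27 (adjusted p = 0.0429). The call was lost without scrambled ASO replicate 1 (adjusted p = 0.0846), scrambled ASO replicate 2 (0.164), scrambled ASO replicate 3 (0.0670), Pgam ASO replicate 1 (0.0530) or Pgam ASO replicate 2 (0.133), with library size alone (0.0527) and with no filter on low counts (0.172), within a range of 0.00859 to 0.172. The list held 1 rise and no fall without scrambled ASO replicate 3 or with no filter on low counts, 1 of each by DESeq2, and 2 falls without Pgam ASO replicate 3.

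Of 13 proliferation genes, 7 rose, where 8.03% of all tested genes did, and none fell, with a median of 0.36. Rrm2, a subunit of ribonucleotide reductase, was at 260 ± 27 CPM under scrambled ASO and 375 ± 29 CPM under Pgam ASO (adjusted p = 0.0103), and Mcm2, part of the replicative helicase, at 231 ± 37 and 313 ± 23 CPM (adjusted p = 0.0343). The call of Rrm2 was lost without Pgam ASO replicate 2 (0.0704), and that of Mcm2 without scrambled ASO replicate 1 (0.0934), scrambled ASO replicate 2 (0.0563), Pgam ASO replicate 1 (0.110) or Pgam ASO replicate 2 (0.133). Mki67, a common marker of cycling cells, named after its value was seen, was at 1363 ± 77 and 1360.0 ± 57 CPM and was not called (adjusted p = 0.982). The 7 calls became 1 without scrambled ASO replicate 1, 3 without scrambled ASO replicate 2, 1 without Pgam ASO replicate 1 and 0 without Pgam ASO replicate 2, and they became 11 without scrambled ASO replicate 3 or by DESeq2.

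**Figure D4:**
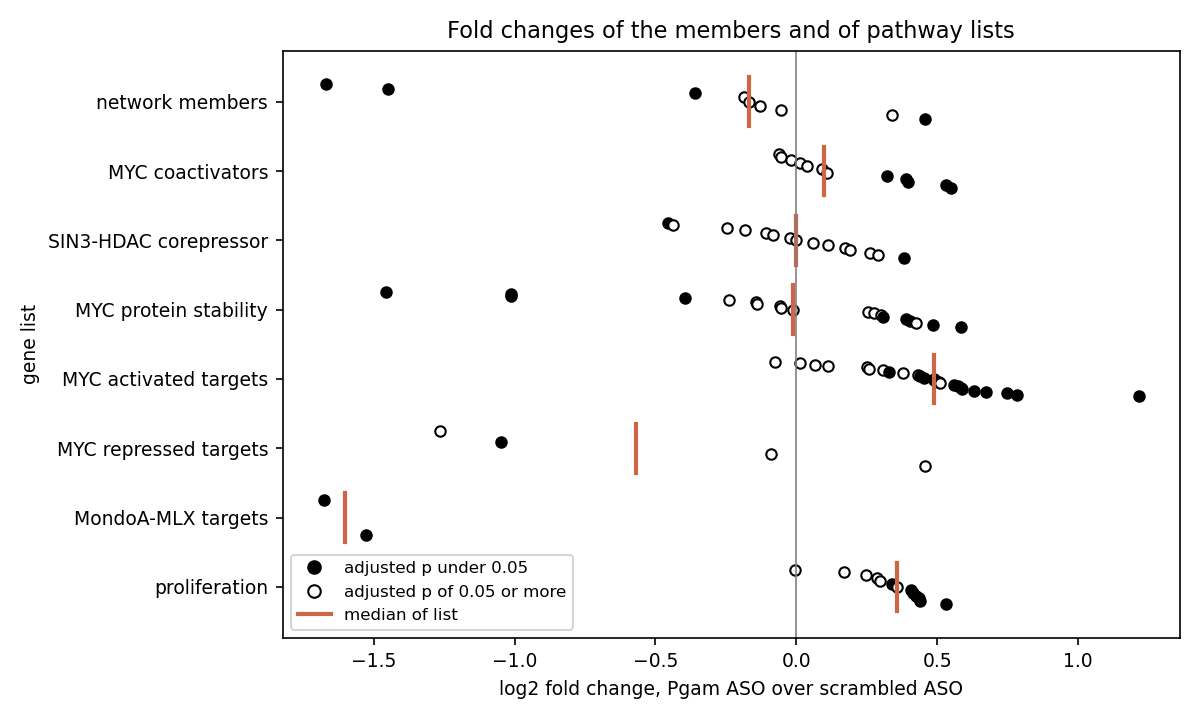
Log2 fold change of Pgam ASO over scrambled ASO (horizontal axis) for each tested gene of the network and of 7 lists; filled points have an adjusted p under 0.05, the coloured line is the median of a list, and the vertical spread within a list only separates points. The genes that MYC activates lie mainly above 0 with a median of 0.49, and the members spread from -1.67 to 0.46.

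**Figure D5:**
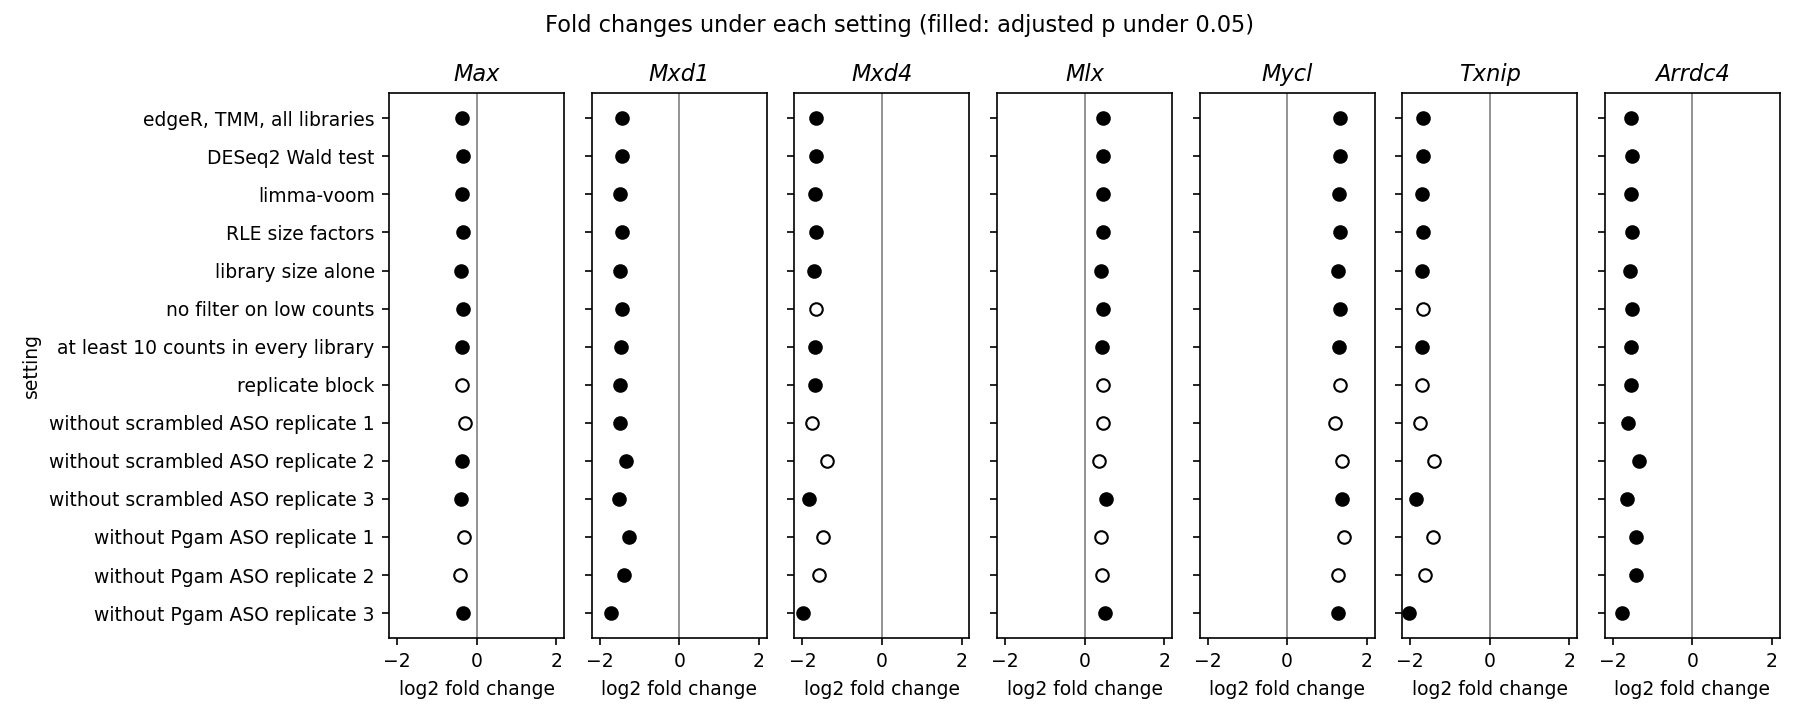
Log2 fold change (horizontal axes) of Max, Mxd1, Mxd4, Mlx, Mycl, Txnip and Arrdc4 under each setting (vertical axis); filled points have an adjusted p under 0.05. Every point keeps its sign, and Mxd1 and Arrdc4 are filled in each of the 14 settings.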

How the data were processed

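The authors quantified the reads with kallisto (build GRCm38 in the submitters' processing notes; its version and the annotation are not given in the sources used here) and deposited whole-number counts per gene for 6 libraries. Of 56748 gene identifiers, 52125 were found in GENCODE M21, which gave symbols, coordinates and merged exon lengths. Counts were tested with edgeR 4.0.16 in R 4.3.3 (filterByExpr, TMM, robust quasi-likelihood test, two-sided, group as the only term), with Benjamini-Hochberg adjustment over all 14936 genes that passed the filter and a threshold of 0.05. The study used DESeq2, which is an alternative here (1.42.0), as are limma-voom (3.58.1), other scalings and filters, a replicate block, each library left out, and a fold threshold. CPM were scaled with TMM factors from 0.972 to 1.03, and 1 count equals 0.0540 to 0.0642 CPM. Library pairs of a label differed by far more than sampling noise (chi-square per degree of freedom from 7.39 to 27.1), so none was a copy. The scripts were tested on simulated data. Named genes are the members, Mycl, Mga, Mlxipl, Pgam1, Pgam2, Txnip and Arrdc4, the 2 largest rises and 2 largest falls of each other list among genes with an adjusted p under 0.05 and no overlap between groups, and the 3 genes most correlated with Myc. Of the genes this rule takes, 1 is not reported here. Cell type markers are given as lists, and the single markers named from them, like Mki67, were named after their values were seen. The members and lists were chosen with earlier results of these data known.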

Additional observations from a re-analysis of the deposited data

How the results depend on the processing

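Of the 4 called members, Mxd1 was called in all 14 settings without a fold threshold, Max in 10, and Mxd4 and Mlx in 9 each. The fold threshold is not among these 14, and the log2 fold changes of Max (-0.36) and Mlx (0.46) do not reach it. DESeq2, limma-voom, RLE factors, library size alone and a minimum of 10 counts in every library called the same 4 members. The number of members called higher was 2 with no filter on low counts and 0 with a fold threshold of 0.5 on the log2 scale, and it ranged from 0 to 2 when 1 library was left out, while the number called lower ranged from 1 to 3. Over the whole table there were 2565 calls, 1609 with the fold threshold and 3732 with no filter on low counts. When 1 library was left out they ranged from 391 (without Pgam ASO replicate 2) to 3484 (without scrambled ASO replicate 3), with 620 without scrambled ASO replicate 1, 871 without Pgam ASO replicate 1 and 1256 without scrambled ASO replicate 2. In the cofactor, stability, target, proliferation and other network lists together there were 40 calls, 19 with the fold threshold and from 6 to 53 when 1 library was left out. The replicate number as a block gave 0 members higher (Mlx was lost, adjusted p = 0.0627) and 2 lower (Max was lost, adjusted p = 0.0698). It gave 1235 calls over the table and 17 in the lists. Of the other named genes, the block also ended the calls of Txnip (0.0528), Mycl (0.0644), Rbbp7 (0.0684) and Mcm2 (0.0687). Under it 1 T cell marker and 1 Treg marker were called lower, and 0 CD8 markers higher. Libraries of equal number did not deviate together (r of 0.053, -0.034 and -0.24). With 3 libraries per label these correlations cannot decide whether such libraries are paired, so the calls lost under the block are given without a reading. Whether such libraries share an animal or culture is not given in the sources used here. The uncalled log2 fold change of Mnt ranged from -0.13 to 0.034 when 1 library was left out, being above 0 without scrambled ASO replicate 2. The mean ratio of MXD and MNT to Myc under scrambled ASO was 0.911 with the longest transcript as length and 1.40 with the mean transcript length, and 1.03 under Pgam ASO with the latter; the choice of length sets this scale, and RLE factors cancel within a library. DESeq2 gave no adjusted p for Mycn. The cause of the other shifts was not tested. Depth limits Mycn, Mycl and Mlxipl, where a few counts decide a level.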
